A study of Oryza sativa with 16 samples.

Results

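At stage 1 of panicle initiation, shoot apical meristems of the rice mutant d1 were compared with those of wild type (WT) plants. In the mutant, which bears the allele d1-1, the affected locus is RGA1, which encodes the alpha subunit of the heterotrimeric G protein. The comparison takes 4 of the study's 16 RNA-seq libraries, 2 of d1 and 2 of WT, and the authors' table gives them as 1 value per gene and genotype, so 2 of its 8 columns are used. The other 6 columns hold the same genotypes at stages 2, 4 and 7 and serve here only to show what differs at stage 1. All plants were 3 months old and had been grown for 100 days in a greenhouse, 1 plant to a pot. The labels place every sample at panicle initiation without defining the stage numbers, and they do not say how many plants were pooled in a library or name the background cultivar.

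Values are FPKM, in which fragments are scaled by transcript length and by library size, and were combined by the authors over the 2 libraries of a group before deposit. They therefore carry no SD and no n, and no test between genotypes is possible within a stage. A difference is the log2(FPKM + 1) of d1 minus that of WT, computed for 19757 of the 34302 rows of the table, those with at least 1 FPKM in at least 2 of the 8 columns. Adding 1 FPKM understates the change of low genes. Of the genes kept, 604 reached 1 FPKM in exactly 2 columns, and 29 of these lay past a difference of 1 at stage 1. Just outside, 806 rows reached 1 FPKM in 1 column only, and 50 of them lay past the same difference. RNA came from bulk tissue, in which fewer cells of a type and less RNA per cell cannot be told apart.

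A heterotrimeric G protein couples receptors at the plasma membrane to signalling inside the cell, through an alpha subunit that binds GTP and a beta-gamma dimer. In rice, loss of the alpha subunit gives the dwarf plants with short, broad leaves and rounded grains for which the d1 locus is named. At panicle initiation the vegetative apex stops making leaves and begins to form the branch meristems of the inflorescence. Meristem identity at the apex rests on class I KNOX homeobox genes, and branching on transcription factors such as LAX1, FZP and SPL14.

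Genes are named below under a restriction. The files do not pair identifiers with names, and the NCBI gene table used (assembly ASM3414082v1) holds none of the identifiers. A gene symbol is therefore used only where its identifier was written down from general knowledge and its place could be checked. The NCBI table had to hold that symbol on the same chromosome, within 0.03 of the same relative place in gene order. Such a check cannot tell near neighbours apart, and of the identifiers that could be checked 318 passed and 0 failed. Of 324 identifiers written down for 20 lists, only 127 had values in the deposited data. The condition on symbols held for 125 of these, of which 95 passed the filter on low values. List medians and counts below therefore cover the members measured and not whole gene families. Other genes appear by identifier, 2 higher and 2 lower per comparison. The deposited build was IRGSP-1.0, and the table gives no coordinates.

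RGA1 itself (OS05G0333200, chromosome 5) had 27.5 FPKM in WT and 21.97 in d1 at stage 1, a log2 difference of -0.31. At stages 2, 4 and 7 the WT values were 29.6, 30.2 and 29.8 FPKM and the d1 values 20.9, 23.6 and 24.1. All 4 d1 values lay below all 4 WT values, and the transcript was present in the mutant throughout. The labels do not say how d1-1 alters the gene, so its RNA level is a weak check of the genotypes. RGB1, the beta subunit gene, had 53.2 FPKM in WT and 52.7 in d1 at stage 1. RGG1, a gamma subunit gene, was near the filter, with 0.586 and 0.830 FPKM.

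Both stage 1 columns carried the transcripts of a meristem. OSH1, the class I KNOX gene that marks indeterminate cells of the rice apex, had 354 FPKM in WT and 354 in d1. OSH15, a KNOX gene needed for internode growth, had 164 and 151 FPKM. Genes that act in floral organs were hardly seen yet. MADS8 was listed at 0 in both genotypes at stage 1 and had 26.3 FPKM in WT at stage 7, and MADS3 had 0.0203 FPKM in WT and was listed at 0 in d1, with 4.66 FPKM in WT at stage 7. Over all genes kept, the stage 1 columns correlated with Pearson's r of 0.984 on the log2 scale, where genes are not independent replicates. The summed FPKM was 637594 in WT and 669241 in d1, and 18037 and 18375 rows reached 1 FPKM. The depth behind the values is unknown.

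Most genes differed little between the genotypes at stage 1, and those that differed were mostly higher in d1. A difference of at least 1 was seen in 301 genes that were higher in d1 (1.52% of genes) and in 90 that were lower (0.456%). At least 2 was reached by 71 higher and 11 lower genes. A further 18078 genes, 91.5%, differed by less than 0.5, and the median over all genes was 0.02. There were 3.34 higher genes for each lower one at stage 1. That ratio was 1.56 at stage 2 (338 higher, 1.71%, and 216 lower, 1.09%), 0.751 at stage 4 (142 higher, 0.719%, and 189 lower, 0.957%) and 0.386 at stage 7 (117 higher, 0.592%, and 303 lower, 1.53%). Stage 1 thus had the fewest lower genes of the 4 stages and the highest ratio of higher to lower genes. With no libraries to compare, these counts describe the authors' values only. They depend on how low values are treated, with 992 genes past 1 in all when 0.1 FPKM is added in place of 1, and 157 when only genes averaging 5 FPKM are kept, but higher genes outnumbered lower ones under both.

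**Figure D1:**
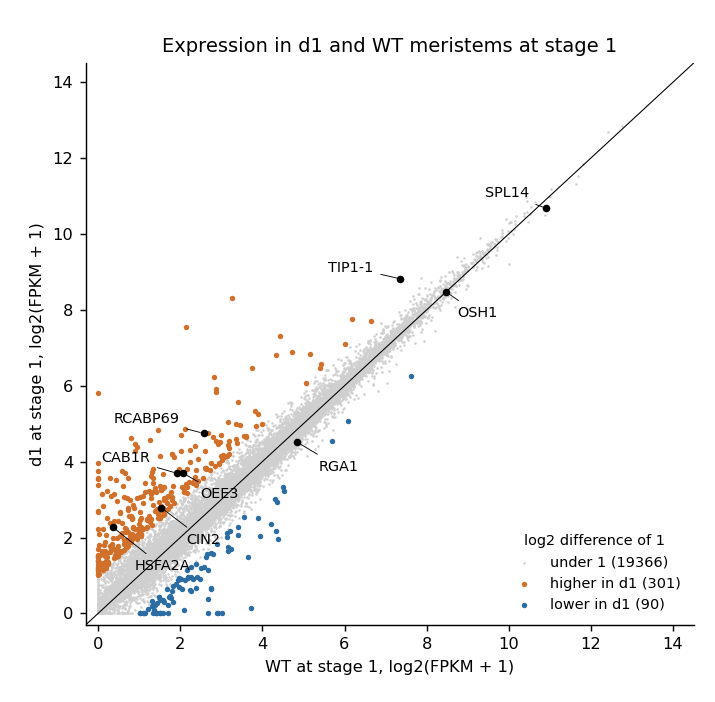
Each point is 1 of 19757 genes, with log2(FPKM + 1) in WT on the x axis and in d1 on the y axis, both at stage 1, and the line marks equal values. Orange points are the 301 genes at least 1 higher in d1, blue points the 90 at least 1 lower, and black points are named genes, of which RGA1, OSH1 and SPL14 lie near the line.

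**Figure D2:**
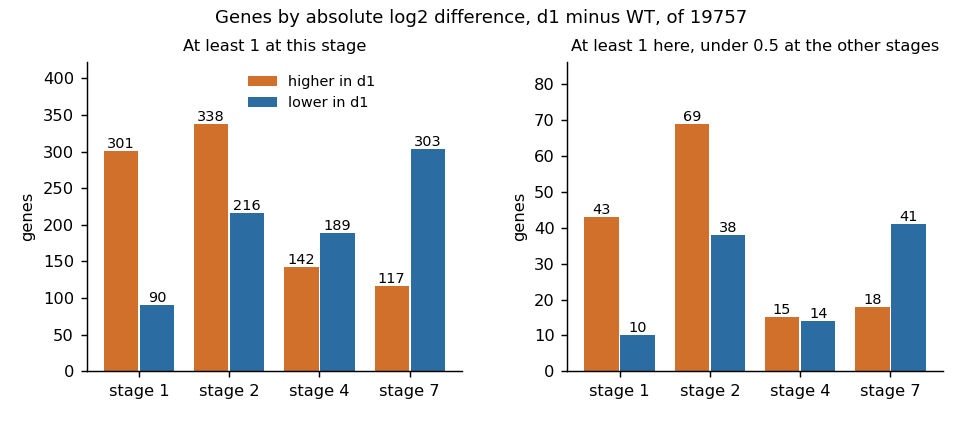
Bars count genes by log2(FPKM + 1) difference, d1 minus WT, at each stage, in orange for higher and blue for lower in d1. The left panel counts all genes at 1 or more and the right panel those that also stayed under 0.5 at the other 3 stages, and stage 1 has the lowest blue bar in both (90 and 10).

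The genes past 1 were mostly of low abundance. Among the 301 higher genes the median level was 1.05 FPKM in WT and 6.10 in d1, against 11.2 and 11.4 over all genes kept. In 20 of the higher genes WT was listed at 0, and in 146 it was under 1 FPKM. The 90 lower genes had a median of 3.80 FPKM in WT and 0.638 in d1, with 11 listed at 0 in d1. The share of genes past 1 was 3.87% among those with a mean of 1 to 5 FPKM over the 8 columns, 1.72% from 5 to 20 FPKM, 0.550% from 20 to 100 FPKM and 0.714% at 100 FPKM or more. In that last class 7 genes were higher and 1 was lower among 1121. Higher genes outnumbered lower ones in each of these classes of abundance, and in the 960 genes with a mean under 1 FPKM (31 higher and 8 lower).

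By chromosome, 1.30% to 2.56% of genes lay past 1 at stage 1. Chromosome 5, which carries RGA1, had the highest share, with 29 higher and 13 lower of 1643 genes, followed by chromosome 8 with 2.42% and chromosome 3 with 2.28%. Chromosome 11 had the lowest share, with 10 higher and 3 lower genes of 1001. On all 12 chromosomes more genes were higher than lower at stage 1. The ranks did not hold at the other stages. Chromosome 10 had the highest share at stage 2 (3.96%), chromosome 11 at stage 4 (2.50%) and chromosome 3 at stage 7 (2.65%). Chromosome 5 had 3.35%, 2.31% and 2.07% at those stages.

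The identifier with the largest positive difference was OS05G0230501, listed at 0 in WT at every stage and at 54.6, 45.0, 33.4 and 47.6 FPKM in d1 at stages 1, 2, 4 and 7. Its difference was 5.80 at stage 1 and 5.52, 5.10 and 5.60 at stages 2, 4 and 7, so that it was present at all 4 stages. The next was OS12G0189300, on chromosome 12, at 3.37, 2.69, 0.509 and 0.149 FPKM in WT and 187, 3.29, 3.70 and 9.65 in d1. Here d1 at stage 1 stood far above the other 7 values, with a log2 difference of 5.42. The largest negative difference was that of OS03G0181550, on chromosome 3, at 12.2, 1.01, 13.2 and 10.7 FPKM in WT and 0.0961, 17.3, 28.3 and 25.6 in d1. It was low in d1 at stage 1 and in WT at stage 2, and higher in d1 at all 3 later stages. OS06G0621550, on chromosome 6, had 7.15, 24.5, 7.34 and 17.4 FPKM in WT and was listed at 0 in d1 at stages 1, 2 and 7, with 7.60 FPKM at stage 4.

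Photosynthesis genes had the highest median difference at stage 1 among the lists with 3 or more members. Of the 5 measured list members that passed the filter, all 5 were above 0 in the difference, against 53.9% of all genes. Of these 5, 3 lay past 1, against 1.52% of all genes, and the median was 1.64 beside 0.02 for all genes. Without the filter on low values the list has 6 members and a median of 0.96. The list was drawn up with earlier results of these data known, so its direction is a description. RCABP69, a chlorophyll a/b-binding protein of the light-harvesting antenna, had 4.94, 17.5, 4.97 and 11.1 FPKM in WT and 25.8, 7.69, 10.5 and 5.85 in d1 at stages 1, 2, 4 and 7. CAB1R, another antenna protein gene, had 2.79, 7.97, 0.990 and 7.13 FPKM in WT and 11.9, 1.90, 3.26 and 1.69 in d1. OEE3, a protein of the oxygen-evolving side of photosystem II, had 3.16, 10.02, 11.2 and 13.5 FPKM in WT and 12.02, 5.53, 8.80 and 12.5 in d1.

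In both antenna genes d1 at stage 1 was the highest of the 8 values. All 3 genes were lower in d1 than in WT at stage 2, so the order of the genotypes turned between stages 1 and 2. The stage 1 differences were 2.17 for RCABP69, 1.77 for CAB1R and 1.64 for OEE3, and those at stage 2 were -1.09, -1.63 and -0.76. In WT the 3 genes were higher at stage 2 than at stage 1, and in d1 they were lower. The other 2 members differed little at stage 1. LFNR1, a leaf ferredoxin-NADP reductase, had 0.671 FPKM in WT and 0.780 in d1, and FBPase, an enzyme of the Calvin cycle and sucrose synthesis, had 1.12 and 1.13. RBCS-A, a small subunit of Rubisco and a defining leaf transcript, did not pass the filter and had 0.0206 FPKM in WT and 0.228 in d1 at stage 1. The list's median difference was -0.76 at stage 2, 0.51 at stage 4 and -0.11 at stage 7.

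Genes of chlorophyll synthesis did not share that size of difference. PORB, a light-dependent protochlorophyllide reductase, had 0.954 FPKM in WT and 1.45 in d1 at stage 1, and 3.85 and 0.798 at stage 2. GluTR, the first committed enzyme of tetrapyrrole synthesis, had 32.5 and 33.4 FPKM at stage 1, and VIPP1, needed for thylakoid formation, had 31.0 and 28.5. The median of these 3 was 0.04. Since antenna transcripts are those of green leaf tissue, the levels above stand beside every stage 1 count in this text, and their part in those counts was not tested.

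The list genes past 1 and higher in d1 at stage 1 included 3 outside photosynthesis. In all, 6 of the 95 list members lay past 1, all in that direction, where 1.52% of all genes were higher by 1. TIP1-1 and CIN2 came in after their values had been seen, so this count is partly made by those values. TIP1-1, a water channel of the vacuolar membrane, was the most abundant of the 6 and was put on a list at that point. TIP1-1 had 164, 203, 153 and 221 FPKM in WT and 450, 238, 223 and 233 in d1. The d1 value at stage 1 was the highest of the 8, and the difference of 1.45 at that stage compares with 0.23, 0.54 and 0.08 at stages 2, 4 and 7. No other aquaporin identifier was analysed here.

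HSFA2A, a heat stress transcription factor, had 0.280, 0.402, 0.652 and 5.77 FPKM in WT and 3.84, 0.0538, 1.29 and 0.219 in d1. It was high in d1 at stage 1 and in WT at stage 7, with differences of 1.92 and -2.47. HSP81-1, a heat shock protein of the HSP90 family, had 104 FPKM in WT and 141 in d1 at stage 1, and 213 and 94.5 at stage 7. Its difference had the same sign as that of HSFA2A at both stages but was 0.44 at stage 1. HSFA2D, a related factor, had 3.23 and 3.72 FPKM at stage 1.

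CIN2, a cell wall invertase that splits sucrose outside the cell, had 1.91, 7.26, 1.23 and 11.7 FPKM in WT and 5.87, 1.47, 3.57 and 22.4 in d1. It was higher in d1 at stages 1, 4 and 7 and lower at stage 2. Its symbol was matched to the identifier after its values had been seen. The starch and sucrose genes listed with it differed less. SUT2, a sucrose transporter, had 15.2 FPKM in WT and 17.8 in d1 at stage 1, SSI, a starch synthase, had 23.4 and 22.8, and SBE1, a starch branching enzyme, had 53.7 and 48.8. The median of the 5 members was -0.01.

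**Figure D3:**
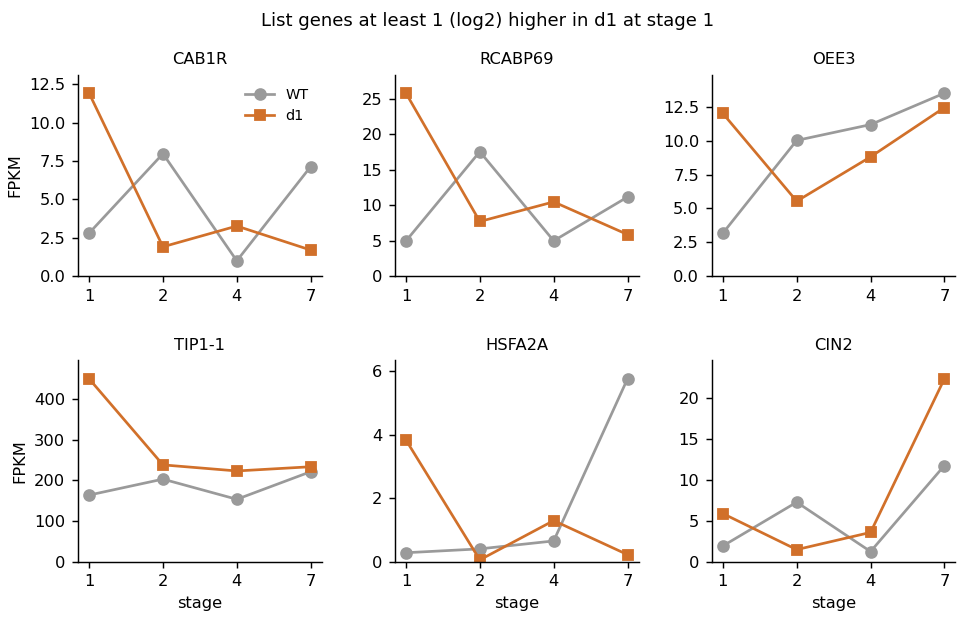
FPKM of the 6 list genes that were at least 1 (log2) higher in d1 at stage 1, by stage, with WT in grey circles and d1 in orange squares, 1 combined value per point. The d1 value lies above that of WT at stage 1 in all 6, and below it at stage 2 in CAB1R, RCABP69, OEE3, HSFA2A and CIN2.

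Regulators of the meristem and of panicle branching differed little at stage 1, as did most genes. Of the 5 meristem members 0 lay past 1, where 1.98% of all genes did in either direction, and their differences ran from -0.12 to 0.11. OSH71, a KNOX gene, had 73.1 FPKM in WT and 79.0 in d1, and PLA3, a peptidase gene that sets the rate of leaf initiation, had 26.1 and 25.6. OSH10, a KNOX gene that did not pass the filter, was listed at 0 in WT and had 2.50 FPKM in d1.

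Among the 7 branching genes 0 lay past 1, again near the 1.98% of all genes, and the median was 0.05. LAX1, a basic helix-loop-helix factor that starts axillary meristems, had the largest difference of them, 0.58. Its levels were 127, 114, 132 and 55.7 FPKM in WT and 190, 194, 155 and 50.5 in d1, so that it was higher in d1 at stages 1, 2 and 4 and not at stage 7. SPL14, which promotes panicle branching, was the most abundant list gene, with 1917 FPKM in WT and 1635 in d1. G1L5 (TAWAWA1), which delays the switch to spikelets, had 94.8 and 98.2 FPKM at stage 1, while at stage 4 it had 5.35 and 10.4. NAL1, a gene for leaf width and spikelet number, had 59.4 and 72.2 FPKM. FZP, which fixes spikelet identity, was listed at 0 in both genotypes, so its difference of 0 is no measure of likeness.

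The 5 MADS-box members had a median of 0.00 and a range of -0.11 to 0.25 at stage 1. MADS8, MADS3 and MADS17 were under 1 FPKM in both genotypes at stage 1 and passed the filter only through stage 7. With 1 FPKM added, their stage 1 differences are held near 0, so this median is no measure of likeness between the genotypes. MADS14, an AP1/FUL-like gene that acts in the inflorescence meristem, had 16.8 FPKM in WT and 18.5 in d1. MADS47, of the SVP group, had 4.10 and 5.07. In the clock and flowering list GI, a clock and photoperiod gene, had 280 FPKM in WT and 224 in d1, and LHY, a morning clock factor, had 53.8 and 58.5. LHY separated later, with 201 FPKM in WT and 44.1 in d1 at stage 7.

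Of the hormone genes, 0 of 35 members lay past 1 at stage 1, a count near the 1.98% of all genes. All 5 cytokinin members were slightly higher in d1, from 0.04 to 0.28, where 53.9% of all genes were above 0. This was not particular to stage 1. Their median was 0.08 at stage 1 and -0.01, 0.17 and 0.18 at stages 2, 4 and 7, with 2, 4 and 5 members higher. The response regulator gene RR2 had 24.6 FPKM in WT and 30.0 in d1 at stage 1. The gibberellin members had a median of 0.12, and SLR1, the DELLA repressor, had 129 and 133 FPKM. D35, an ent-kaurene oxidase of gibberellin synthesis, had 4.32 and 3.33 FPKM. In the brassinosteroid list the receptor gene BRI1 had 141 and 148 FPKM, and TUD1, a U-box ubiquitin ligase that acts with RGA1 in rice, had 50.6 and 54.4. The 4 auxin members ran from -0.07 to 0.24. The median of the 14 genes of abscisic acid, ethylene and jasmonate was -0.04. ACO1, an enzyme of ethylene synthesis, differed most of these, with 12.8 FPKM in WT and 20.7 in d1, a difference of 0.65 that was 0.75 at stage 2.

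Cell division genes were nearly equal at stage 1, from -0.10 to 0.15 over 8 members. PCNA, the clamp of DNA replication, had 276 FPKM in WT and 305 in d1. MCM2, a subunit of the replicative helicase, had 77.7 and 72.6. At stage 4 all 8 members were higher in d1, with a median of 0.20, where 50.5% of all genes were higher and the median of all genes was 0.00. All 8 were also higher at stage 7, with a median of 0.16 (51.3% of all genes were higher). At stage 2 it was 7, with a median of 0.05 (51.9% of all genes). The median of the 8 at stage 1 was -0.01. The 4 defence members had a median of -0.04 at stage 1, and NH1, a regulator of systemic resistance, had 9.66 FPKM in WT and 7.49 in d1. PBZ1, a pathogenesis-related protein gene, was below 0.2 FPKM in both genotypes at stage 1 but had 29.4 and 138 at stage 7. WRKY71, another of the 4, was also below 0.2 FPKM in both at stage 1. The differences of PBZ1 and WRKY71 are thus held near 0 by the added 1 FPKM. The 5 abiotic stress members had a median of 0.42 and 0 past 1, with LIP9, a dehydrin, at 30.3 and 40.7 FPKM and MT2B, a metallothionein, at 6.29 and 10.1. Roc1, an epidermal homeobox gene, had 83.0 and 79.1. Of the cell wall list, BC1 (0.379 and 0.327 FPKM) and CCR1 (0.202 and 0.0757) were measured and neither passed the filter.

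**Figure D4:**
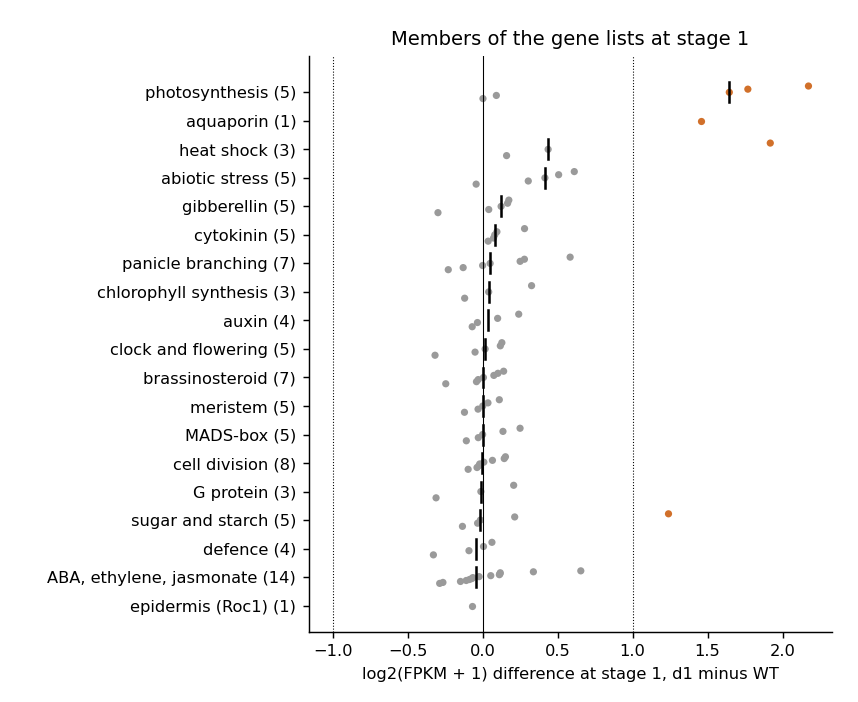
Points are the 95 list members that passed the filter, placed by log2(FPKM + 1) difference at stage 1, d1 minus WT, 1 row per list with the number of members in brackets. Black bars mark medians of lists with 3 or more members, dotted lines mark -1 and 1, and the 6 orange points past 1 are the 6 genes shown by stage.

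Some of the same genes passed 1 at the other stages, at shares above those of all genes. Of the 301 higher genes, 206 (68.4%) passed 1 at stage 1 and were not past 1 in the same direction at stage 2, 4 or 7. Those also past 1 at stage 2 numbered 57, which is 18.9% of the stage 1 set and 16.9% of the stage 2 set, where 1.71% of all genes were higher by 1. At stage 4 there were 44, or 14.6% of the stage 1 set and 31.0% of the stage 4 set (0.719% of all genes), and at stage 7 there were 21, or 6.98% and 17.9% (0.592% of all genes). The number higher by 1 at all 4 stages was 7. The other direction also occurred. At stage 2, 40 of the 301 genes (13.3%) were lower in d1 by at least 1, against 1.09% of all genes, and these made up 18.5% of all genes lower by 1 at stage 2. CAB1R, RCABP69 and CIN2 are among them. The opposite direction was seen in 11 genes at stage 4 (3.65%, against 0.957% of all genes) and 26 at stage 7 (8.64%, against 1.53%).

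The 90 lower genes carried over more evenly. Of these, 28 were also lower by 1 at stage 2, 28 at stage 4 and 27 at stage 7, between 30.0% and 31.1% of the stage 1 set, where 1.09%, 0.957% and 1.53% of all genes were lower by 1. These are 12.96%, 14.8% and 8.91% of the lower genes of stages 2, 4 and 7. At all 4 stages 11 of the 90 (12.2%) were lower by 1, against 2.33% of the higher set. The opposite direction occurred here too. Higher in d1 by at least 1 were 10 of the 90 at stage 2 (11.1%), 6 at stage 4 (6.67%) and 4 at stage 7 (4.44%). The shares of all genes higher by 1 were 1.71%, 0.719% and 0.592%. The median difference of the lower genes was -0.52, -0.48 and -0.53 at stages 2, 4 and 7. That of the higher genes was 0.16, 0.41 and 0.17. Over all genes, the stage 1 difference correlated with that of stage 2 at r of 0.306, of stage 4 at 0.375 and of stage 7 at 0.168. These comparisons share no column.

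The higher genes fell into groups by which of the 8 columns held the extreme value, as a description that uses the same values as the set itself. In 102 of the 301, WT at stage 1 was the lowest value while d1 at stage 1 was not the highest. Their median level in WT was 1.15, 4.33, 6.001 and 7.81 FPKM at stages 1, 2, 4 and 7, and in d1 it was 5.21, 4.01, 8.86 and 9.08. In these genes d1 at stage 1 stood near the level that WT had at stage 2. In 86 others d1 at stage 1 was the highest value and WT at stage 1 not the lowest. Their medians were 1.45, 2.73, 1.19 and 1.58 FPKM in WT and 9.70, 2.84, 2.50 and 1.81 in d1, so that d1 at stage 1 stood alone. In 42 genes both held, and in 71 neither. In the order given, these classes made up 33.9%, 28.6%, 13.95% and 23.6% of the 301. The same classes made up 12.8%, 16.6%, 0.557% and 69.99% of all genes kept. Whether or not the other condition held, WT at stage 1 was the lowest value in 13.4% of all genes kept. On the same count, d1 at stage 1 was the highest value in 17.2%. Among the 90 lower genes, d1 at stage 1 was the lowest value in 47 (52.2%), against 11.1% of all genes. That share too is partly made by the values that define the set. Those 47 genes had medians of 3.83 FPKM in WT and 0.624 in d1 at stage 1, and 3.22 and 3.23 at stage 2.

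**Figure D5:**
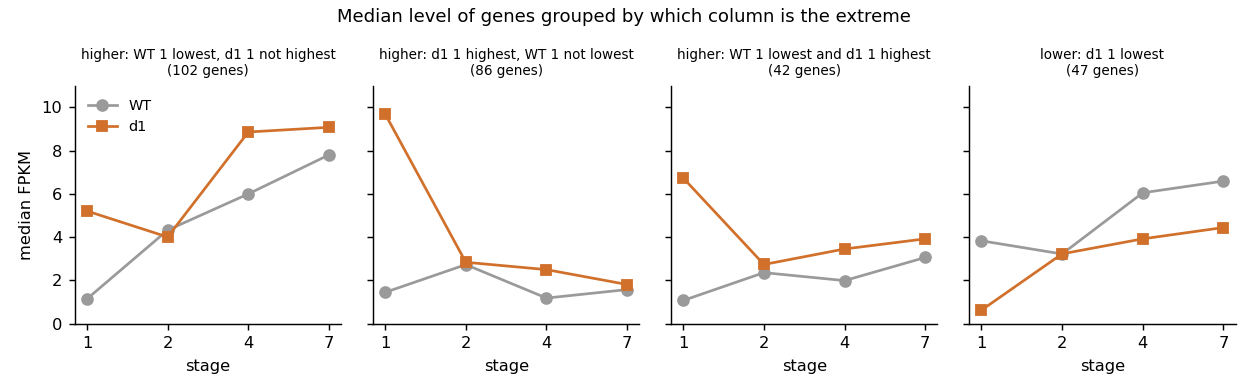
Median FPKM by stage in WT (grey circles) and d1 (orange squares) for stage 1 genes grouped by which column is the extreme. In the 102 genes of the first panel d1 at stage 1 (5.21 FPKM) lies near WT at stage 2 (4.33), and in the 86 of the second panel it lies above all other medians.

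The later stages also differed from each other in these genes. The filter on low values uses the later columns, and 146 of the higher genes were under 1 FPKM in WT at stage 1 and 57 of the lower genes in d1, so the shares that follow are partly set by it and are a description. In WT, 25.6% of the higher genes were at least 1 higher at stage 7 than at stage 2 and 11.96% at least 1 lower, against 5.67% and 2.24% of all genes. In d1 the shares were 27.6% and 20.6%, against 5.26% and 4.05%. Of the lower genes, 27.8% were higher at stage 7 and 11.1% lower in WT. The sets hold more low genes than the whole, and how much of these shares goes with abundance was not tested. Over all genes the stage 1 difference had little relation to the change from stage 2 to stage 7, with an r of 0.05 in WT and of -0.05 in d1. The step from stage 1 to stage 2 shares a column with the stage 1 difference and was not set against it.

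Stage 1 alone accounted for few genes. A difference of at least 1 at stage 1 together with less than 0.5 at the other 3 stages was found for 43 higher (0.218%) and 10 lower genes (0.0506%). The same count at stage 2 gave 69 (0.349%) and 38 (0.192%), at stage 4 gave 15 (0.0759%) and 14 (0.0709%), and at stage 7 gave 18 (0.0911%) and 41 (0.208%). Stage 1 was second to stage 2 in its higher genes and had the fewest lower ones. OS09G0426500, on chromosome 9, had the largest departure among the higher, with 0.635, 0.864, 4.75 and 4.28 FPKM in WT and 7.24, 0.616, 3.70 and 3.61 in d1. OS08G0470200, on chromosome 8, had 0.164, 0.408, 1.04 and 3.69 FPKM in WT and 4.71, 0.251, 1.02 and 3.78 in d1. In both, the genotypes were close from stage 2 on, WT at stage 7 was above WT at stage 1, and d1 at stage 1 was the highest of the 8 values.

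Among the lower genes seen at stage 1 alone, OS03G0753750, on chromosome 3, had 2.28, 0.660, 0.0908 and 1.12 FPKM in WT and 0.805 and 0.891 in d1 at stages 2 and 7, and was listed at 0 in d1 at stages 1 and 4. OS01G0654450, on chromosome 1, had 7.88, 3.13, 4.59 and 1.37 FPKM in WT and 2.10, 3.56, 3.34 and 1.43 in d1. WT at stage 1 was the highest of the 8 values in both.

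Whether the stage 1 difference departs from those at stages 2, 4 and 7 can be tested only against how much the difference varies among those 3 stages. In a limma fit to the 8 columns, 0 of 19757 genes (0%) passed a Benjamini-Hochberg adjusted p of 0.05 in either direction. At an unadjusted p under 0.05 there were 563 (2.85%), of which 400 had a stage 1 difference above the mean of the other stages and 163 below it. A share of 2.85% is below the 0.05 that this cut-off lets through where no gene departs. The 563 can therefore not be taken as a set of departing genes, and their split is a description. Nor can the share show that none of them departs, since the spread rests on 3 stage differences with 2 residual degrees of freedom. These p-values describe departures among the authors' combined values and not from the spread between plants or libraries. The smallest adjusted p was that of OS01G0668100, on chromosome 1, which is named for that reason after its values were seen (limma, adjusted p = 0.0595). The gene had 1.73, 24.1, 74.3 and 55.2 FPKM in WT and 27.5, 36.02, 106 and 77.7 in d1. Its difference was 3.39 at stage 1 and between 0.48 and 0.56 at the later stages, which gave a departure of 2.87 with an SE of 0.11 from the moderated fit. WT at stage 1 was the single low value, and d1 at stage 1 was already near WT at stage 2. Leaving out 1 later stage moved the calls. Without stage 2, 2 genes passed, OS01G0668100 and OS03G0181550 (limma, adjusted p = 0.0322 and 0.0313), and without stage 4 or stage 7 the adjusted p of OS01G0668100 by limma was 0.488 and 0.332, with 0 genes passing. Among the list members OEE3 had the smallest adjusted p, 0.997 by limma, with a departure of 2.04.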

How the data were processed

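Total RNA of rice shoot apical meristems was sequenced in 16 libraries, 2 for each of 8 groups, and samples were grouped by their labels. The authors deposited 1 FPKM value per gene and group. The table states no unit, which was taken from the values and the software. Per the submitters' processing notes the software was Cufflinks and Cuffdiff after TopHat2, with FastQC and Trimmomatic on the reads and IRGSP-1.0 as the build; versions and the scaling between columns are not given in the sources used here. The depth is unknown, and an exact 0 is given as listed at 0. Near-identical or overlapping genes may share reads.

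Genes that reached 1 FPKM in 2 or more columns were analysed as log2(FPKM + 1). The departure of stage 1 was fitted with limma 3.58.1 in R 4.3.3 (eBayes with trend, two-sided). The model held stage as a block, genotype and genotype at stage 1, with 2 residual degrees of freedom and 2.64 prior ones. On simulated data the fit was required only to return the planted mean effects, with no condition on false calls or power. The submitters describe the 2 libraries of a group as replicates, but their combined value allows no test between libraries. The compared stage and the gene lists were chosen with earlier results of these data known. Identifiers named are the 2 highest and 2 lowest by stage 1 difference, and for stage 1 alone by departure, with RGA1 and list members. The alternatives were pseudocount, filter, scaling, threshold and stages in the fit.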

Additional observations from a re-analysis of the deposited data

Results flagged for a closer look

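A closer look is due to 5 named genes that lay past 1 at stage 1 and past 1 in the opposite direction at another stage. Each stage has 1 combined value per genotype, so these differences between stages were not tested. CAB1R had a log2 difference of 1.77 at stage 1, -1.63 at stage 2 and -1.59 at stage 7. RCABP69 had 2.17 at stage 1 and -1.09 at stage 2. CIN2 had 1.24 at stage 1 and -1.74 at stage 2. HSFA2A had 1.92 at stage 1 and -2.47 at stage 7. OS03G0181550 had -3.59 at stage 1 and 3.19, 1.04 and 1.19 at stages 2, 4 and 7.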

How the results depend on the processing

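No paired analysis was possible because each column combines the 2 libraries of a group, and for the same reason no library could be left out. The count of genes past 1 at stage 1, 391 in all, was 992 (739 higher and 253 lower) with a pseudocount of 0.1 FPKM, 157 (123 and 34) where only genes averaging 5 FPKM were kept, and 82 (71 and 11) at a difference of 2. It was 381 (285 and 96) with columns scaled to the same median, 360 (257 and 103) after quantile normalization, and 441 without the filter, so higher genes outnumbered lower ones in all of these. The 53 genes of stage 1 alone became 81 with the pseudocount of 0.1, 87 without the filter and 21 with a mean of at least 5 FPKM. The 0 genes of the limma departure became 1 with the pseudocount of 0.1, 3 with a mean of at least 5 FPKM (OS01G0668100, OS03G0417833 and OS04G0545250, named for this count) and 2 with stage 2 left out (OS01G0668100 and OS03G0181550). The adjusted p of OS01G0668100 by limma ran from 0.0304 to 0.488 over the alternatives. Medians of lists with 3 or more members moved by less than the SD over their members in every alternative run, although that of photosynthesis went from 1.64 to 0.96 without the filter, where RBCS-A enters. Of the named genes, 16 were followed singly (RGA1, the identifiers named by rule and the list genes past 1), and these kept their side of 1 wherever they passed the filter. The depth behind low values is unknown.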
